A study of Homo sapiens with 6 samples.

Results

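The genes described here encode secreted vascular growth factors and their relatives: PDGFA and PDGFB (platelet-derived growth factor chains), VEGFA, VEGFB and VEGFC (vascular endothelial growth factors), EDN1 (endothelin 1), and ANGPTL4, ANGPTL6 and ANGPTL8 (angiopoietin-like proteins). They were chosen as named families, with earlier results of these data known. All 9 were found among the 57773 genes of the count table, ANGPTL8 under its older symbol C19orf80. RNA was sequenced from HepG2 cells, a human line labelled as hepatocellular carcinoma, grown as a monolayer in medium with serum. For treatment with TGFβ, the study's methods give a wash and a change to medium without serum. The cells then received human recombinant TGFB1 at 5 ng/mL (TGFβ) or vehicle for 3 h, with 3 cultures in each group. The cultures are replicates of 1 cell line that holds no endothelial cells, pericytes or platelets of its own, so ligand RNA was measured without the cells on which most of these ligands act. The levels are of bulk RNA, in which fewer producing cells and less RNA per cell cannot be told apart, and no protein was measured.

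PDGF chains pair into dimers that bind the receptor tyrosine kinases PDGFRA and PDGFRB on mesenchymal cells such as pericytes and hepatic stellate cells. VEGFA binds FLT1 and KDR on endothelial cells and drives vessel growth, VEGFB binds FLT1, and VEGFC acts mainly through FLT4 on lymphatic vessels, with NRP1 and NRP2 as co-receptors. Endothelin 1 is a vasoconstrictor peptide that is cut from its precursor by ECE1 and acts on EDNRA and EDNRB. ANGPTL4 and ANGPTL8 inhibit lipoprotein lipase, the enzyme that releases fatty acids from circulating triglycerides, and ANGPTL6 is a liver-derived factor linked to angiogenesis and energy use.

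The number of reads on genes ran from 60815385 to 100099136 over the 6 cultures. The TGFβ targets SMAD7, SKIL and PMEPA1 rose, 3 of 3, with log2 fold changes of 1.72, 2.45 and 4.30. The 8 hepatocyte markers, which ALB leads, were all detected, with a summed level of 37159 to 41559 CPM (counts scaled by library size and TMM factor) with vehicle and 35753 to 40450 with TGFβ. None passed the test, and with cultures compared within replicate numbers 1 was lower, TTR (log2 fold change -0.25, FDR 0.0495). In that comparison 8.08% of all tested genes were higher and 3.75% lower. Of 9 endothelial markers 8 were in the table and 3 had enough reads to be tested, none changed, and their summed level was 1.99 to 2.89 CPM with vehicle and 1.73 to 3.06 with TGFβ. KDR was at 0 reads and TEK at 2 reads over all 6 cultures, while TIE1, the endothelial marker with the highest level, was at 1.57 CPM with vehicle and 1.44 with TGFβ. Of 8 platelet and macrophage markers 2 could be tested and none changed (summed level 35.1 to 38.6 CPM with vehicle and 36.2 to 40.6 with TGFβ, nearly all from CD68), and PF4, PPBP and GP9 were at 0 reads. The 7 pericyte and stellate cell markers, led by ACTA2, had a summed level of 54.7 to 59.5 CPM with vehicle and 64.5 to 73.3 with TGFβ. None of the 6 that could be tested passed the test. With cultures compared within replicate numbers 2 were higher, PDGFRB and COL1A1 (FDR 7.25e-06 and 0.00806), where 8.08% of all tested genes were higher. The part of this difference in the results below was not tested.

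With TGFβ, 4 of the genes rose and 1 fell. EDN1 rose 5.73-fold, PDGFB 4.33-fold, PDGFA 3.08-fold and ANGPTL4 2.41-fold, whereas ANGPTL8 fell to 0.484 of its vehicle level. VEGFA, VEGFB and ANGPTL6 did not pass the threshold, an FDR under 0.05 (the p of edgeR's quasi-likelihood test, adjusted by Benjamini-Hochberg over 22747 tested genes), and VEGFC had no reads. In that test 3.11% of all tested genes rose and 1.01% fell. Because the genes were chosen with earlier results of these data known, their counts beside these shares are no test of the families. The median log2 fold change of the 8 tested genes was 0.81, from -1.05 to 2.52, and that of all tested genes was -0.01. When cultures with the same replicate number were compared (a replicate block), VEGFB joined the genes that rose and VEGFA those that fell, giving 5 higher and 2 lower, where 8.08% of all tested genes were higher and 3.75% lower. The cultures of the groups did not overlap for 4 genes with higher and 2 with lower levels under TGFβ, and 10.4% and 8.23% of all tested genes had no overlap in these directions.

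**Figure D1:**
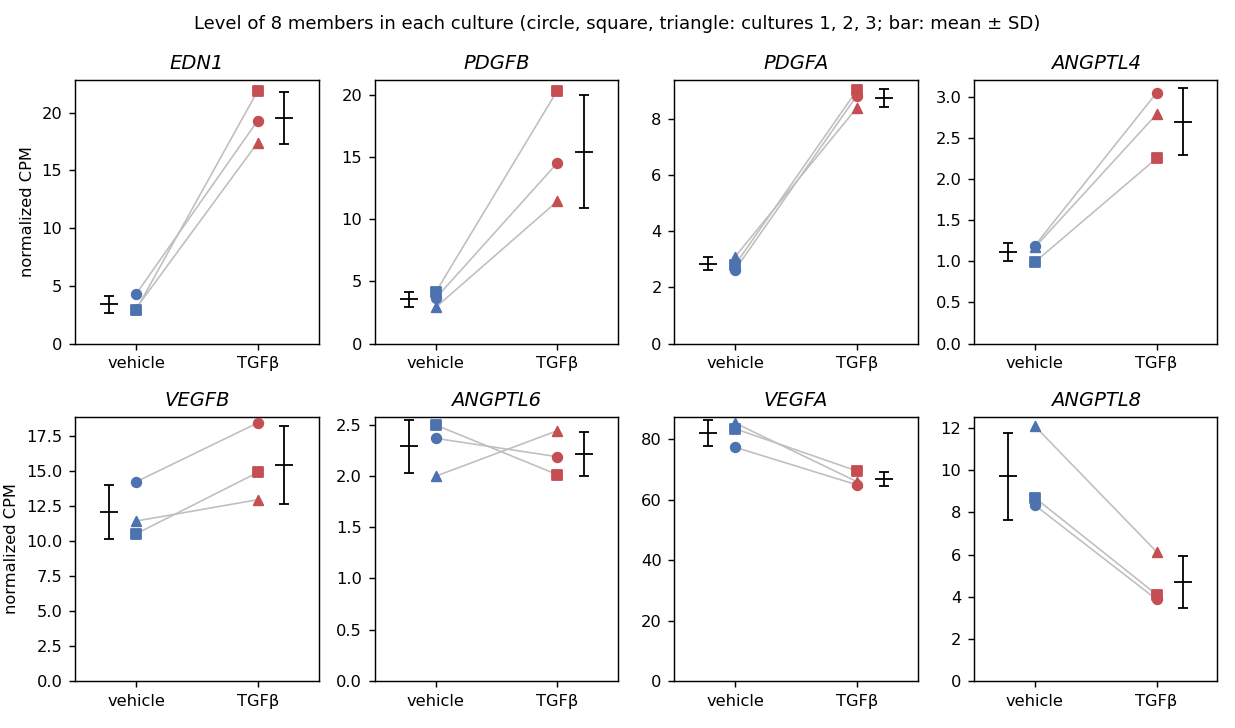
Normalised CPM of each tested gene in every culture (points, a grey line joining cultures of the same number) with the group mean ± SD beside them, for vehicle and TGFβ, with a separate axis for each gene. EDN1, PDGFA, PDGFB and ANGPTL4 lie higher in all 3 TGFβ cultures and ANGPTL8 and VEGFA lower, while the cultures of VEGFB and ANGPTL6 overlap.

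The promoters are shown because the genes moved in different directions, and because TGFβ acts on transcription through SMAD proteins whose core motif is short and can be looked up. RefSeq windows from 250 bases before to 50 bases after a start site (assembly GRCh38.p14) were found for 7 of the 9 genes, with 14 windows in all, and not for PDGFB and VEGFA. For each gene the window whose start lies nearest the start in the count table is described. It was searched on both strands for the SMAD3 core CAGAC, the AP-1 site TGANTCA, the hypoxia response core ACGTG, the GC box GGGCGG and the TATA box TATAAA. The 250 bases before the start are printed 5′ to 3′ on the strand of the gene for the 4 called genes that have a window, in the order EDN1 (chr6:12290111-12290360, + strand), PDGFA (chr7:520227-520476, - strand), ANGPTL4 (chr19:8363905-8364154, + strand) and ANGPTL8 (chr19:11239369-11239618, + strand). Capitals mark matches to CAGAC or its reverse complement, to TGANTCA and to TATAAA.
EDN1: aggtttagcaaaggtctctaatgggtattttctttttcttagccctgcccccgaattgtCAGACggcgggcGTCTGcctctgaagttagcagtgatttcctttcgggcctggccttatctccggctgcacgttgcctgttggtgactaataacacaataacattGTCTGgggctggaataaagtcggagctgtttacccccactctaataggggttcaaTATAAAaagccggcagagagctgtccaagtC
PDGFA: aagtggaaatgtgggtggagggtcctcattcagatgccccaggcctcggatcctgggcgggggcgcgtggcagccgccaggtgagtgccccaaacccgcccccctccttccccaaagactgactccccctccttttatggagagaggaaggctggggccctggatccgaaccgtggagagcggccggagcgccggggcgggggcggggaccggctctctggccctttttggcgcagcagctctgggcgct
ANGPTL4: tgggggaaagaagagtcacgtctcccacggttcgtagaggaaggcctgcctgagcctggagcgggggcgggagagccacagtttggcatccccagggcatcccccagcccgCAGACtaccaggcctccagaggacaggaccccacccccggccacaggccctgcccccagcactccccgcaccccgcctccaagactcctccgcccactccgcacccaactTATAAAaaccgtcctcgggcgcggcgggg
ANGPTL8: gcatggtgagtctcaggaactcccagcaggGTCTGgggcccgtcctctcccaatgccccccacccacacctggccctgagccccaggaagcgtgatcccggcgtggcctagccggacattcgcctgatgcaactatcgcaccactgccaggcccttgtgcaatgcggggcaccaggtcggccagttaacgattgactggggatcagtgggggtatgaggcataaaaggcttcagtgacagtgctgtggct

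The EDN1 window held 4 SMAD3 cores, at -191 to -187, -179 to -175, -86 to -82 and -1 to 4 relative to the start, of which the last runs past the printed stretch and shows only its first base there. At least 1 SMAD3 core was found in 45.3% of the 35116 windows of the same length and at least 4 in 0.57%. A TATA box lay at -31 to -26 and a hypoxia core at -123 to -119. ANGPTL4 held 1 SMAD3 core at -139 to -135, a TATA box at -29 to -24, 1 hypoxia core and 2 GC boxes. PDGFA had no SMAD3 core and no TATA box, but 4 GC boxes, whereas 1 of its other windows, which starts further upstream, held 2 SMAD3 cores. ANGPTL8, which fell, held 1 SMAD3 core at -220 to -216 and none of the other motifs. VEGFB held 1 SMAD3 core and 9 GC boxes, ANGPTL6 1 SMAD3 core and 1 TATA box on the opposite strand, and VEGFC 2 GC boxes. The exact AP-1 string TGANTCA was in none of the 14 windows, and in 7.71% of all windows. Variants that differ from it by 1 base were not searched, so an AP-1 site of another spelling may be present. Of all windows, 21.4% held a hypoxia core, 45% a GC box and 11.5% a TATA box. The start of the window was 2 bases before the start in the count table (GRCh37) for EDN1, but 70 bases inside the gene for PDGFA, 866 for ANGPTL4 and 2117 for ANGPTL8. These are matches of letters and not binding sites, and no binding was measured here.

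**Figure D2:**
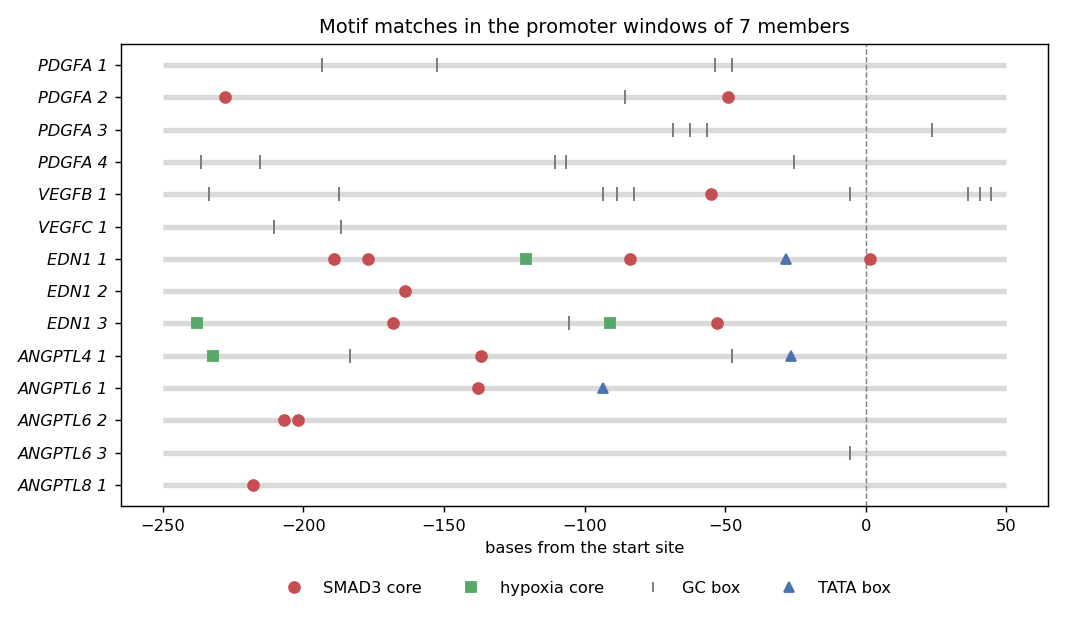
Positions of the motif matches in the 14 promoter windows of the 7 genes that have one, in bases from each RefSeq start site (dashed line), with window 1 of each gene the nearest to the start in the count table. Window 1 of EDN1 carries 4 SMAD3 cores and a TATA box, and window 1 of PDGFA carries GC boxes only.

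EDN1 (ENSG00000078401, chromosome 6, 12290596 to 12297427, hg19, + strand) gave the largest change of the 9 genes. Its level was 4.27, 2.90 and 3.04 CPM in vehicle cultures 1, 2 and 3, and 19.3, 21.9 and 17.4 CPM in TGFβ cultures 1, 2 and 3. Every TGFβ culture stood well above every vehicle culture. The mean rose from 3.40 ± 0.756 to 19.5 ± 2.25 CPM (SD, n = 3 each), a log2 fold change of 2.52 (SE 0.17, 95% interval 2.15 to 2.89). The adjusted p of edgeR's quasi-likelihood test was 4.41e-05, and EDN1 stood at rank 26 by size of rise among all tested genes. Within replicate numbers 1, 2 and 3 the level was 4.52, 7.56 and 5.73 times higher with TGFβ. These rest on 187 to 377 reads per vehicle culture and 1269 to 1872 per TGFβ culture.

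Both PDGF chains rose. PDGFB (ENSG00000100311, chromosome 22, 39619364 to 39640756, - strand), the chain that forms PDGF-BB and binds PDGFRB with high affinity, was at 3.64, 4.13 and 2.91 CPM with vehicle and at 14.6, 20.4 and 11.5 CPM with TGFβ. The groups did not overlap, and TGFβ culture 2 was the highest, as vehicle culture 2 was among the vehicle cultures. The mean went from 3.56 ± 0.614 to 15.5 ± 4.53 CPM, a log2 fold change of 2.12 (SE 0.22, FDR 0.000535). The ratios within replicate numbers were 4.0, 4.94 and 3.95, closer to each other than the TGFβ levels themselves.

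PDGFA (ENSG00000197461, chromosome 7, 536895 to 559933, - strand), the chain that binds PDGFRA only, was at 2.64, 2.81 and 3.10 CPM with vehicle and at 8.84, 9.03 and 8.41 CPM with TGFβ. The groups did not overlap and were narrow, 2.85 ± 0.234 and 8.76 ± 0.320 CPM. The log2 fold change was 1.62 (SE 0.13, FDR 0.000109), with ratios within numbers of 3.35, 3.21 and 2.71. Per length, in the RPKM values of the authors (counts scaled by coding length and library total), PDGFB was 1.39 ± 0.313 times PDGFA with vehicle and 1.94 ± 0.503 times with TGFβ. The ratio was 1.52, 1.62 and 1.03 in the vehicle cultures and 1.82, 2.49 and 1.51 in the TGFβ cultures, so the groups overlapped, while within each number it was higher with TGFβ. An exact 2-sided permutation test without pairing, which cannot go below 0.1, gave p = 0.3 (adjusted p = 0.3 over 2 ratios).

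The VEGF genes had smaller fitted differences, and none passed the threshold in the reported test. VEGFA (ENSG00000112715, chromosome 6, 43737921 to 43754224, + strand) was at 77.3, 83.5 and 85.4 CPM with vehicle and 64.9, 69.5 and 66.0 CPM with TGFβ. All TGFβ cultures were below all vehicle cultures. The means were 82.1 ± 4.19 and 66.8 ± 2.40 CPM, a log2 fold change of -0.30 (SE 0.07, 95% interval -0.46 to -0.14), with an FDR of 0.0521, just above the threshold. With the replicate block the FDR was 0.00279. It was also under the threshold with DESeq2 (0.0126), with total-count scaling (0.0354) and without vehicle culture 1 (0.0393). The FDR was above the threshold with limma-voom (0.0596) and when any culture but vehicle culture 1 was left out (0.0947 to 0.238). An exact permutation test of the CPM gave p = 0.1, the smallest that 3 against 3 cultures allow. The antisense RNA RP1-261G23.7 lies inside VEGFA on the opposite strand (188 bases), with a log2 fold change of -0.53 (SE 0.22, FDR 0.306, and 0.0251 with the block), and because the strand setting is not given, reads of the pair cannot be told apart over these bases.

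VEGFB (ENSG00000173511, chromosome 11, 64002010 to 64006259, + strand) was at 14.2, 10.5 and 11.4 CPM with vehicle and 18.4, 14.9 and 12.9 CPM with TGFβ. The groups overlapped, since vehicle culture 1 was above TGFβ culture 3, but the level was higher with TGFβ within each number, by 1.30, 1.42 and 1.13 times. The log2 fold change was 0.36 (SE 0.15, 95% interval 0.01 to 0.70, FDR 0.343, and 0.0165 with the replicate block). The VEGFA to VEGFB ratio in RPKM was 0.743 ± 0.142 with vehicle and 0.473 ± 0.0869 with TGFβ (exact 2-sided permutation test, p = 0.1, the smallest possible, adjusted p = 0.2). VEGFC (ENSG00000150630, chromosome 4, 177604689 to 177713881, - strand) was at 0 reads in all 6 cultures, which allows up to 3 reads per culture, and the lncRNA that overlaps it (ENSG00000248388) was at 0 reads as well.

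The 3 angiopoietin-like genes went different ways. ANGPTL4 (ENSG00000167772, chromosome 19, 8428173 to 8439257, + strand), a lipoprotein lipase inhibitor that PPARs and hypoxia are known to induce, was at 1.19, 0.990 and 1.17 CPM with vehicle and 3.04, 2.25 and 2.78 CPM with TGFβ. Each TGFβ culture was above each vehicle culture. The means were 1.12 ± 0.110 and 2.69 ± 0.405 CPM, a log2 fold change of 1.27 (SE 0.19, FDR 0.00462), with ratios within numbers of 2.56, 2.27 and 2.38. RAB11B-AS1, which shares 1 base with it, had a log2 fold change of 0.08 (FDR 0.882).

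ANGPTL8 (C19orf80, ENSG00000130173, chromosome 19, 11348178 to 11352619, + strand), a liver factor that rises with feeding, was at 8.35, 8.70 and 12.1 CPM with vehicle and 3.87, 4.10 and 6.13 CPM with TGFβ. Culture 3 was the highest of its group on both sides, and the groups did not overlap. The means fell from 9.72 ± 2.07 to 4.70 ± 1.24 CPM, a log2 fold change of -1.05 (SE 0.21, 95% interval -1.51 to -0.58, FDR 0.0197). The ratios within numbers were 0.464, 0.471 and 0.507, and with the replicate block the FDR was 2.97e-05. Without the block the FDR was 0.0505 when vehicle culture 2 was left out, 0.0953 without vehicle culture 3, 0.0549 without TGFβ culture 1 and 0.0919 without TGFβ culture 2. DOCK6, the gene that contains ANGPTL8 on the opposite strand, had a log2 fold change of -0.08 (FDR 0.877). Because the strand setting is not given, reads of the pair cannot be told apart over the 4442 bases of ANGPTL8.

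ANGPTL6 (ENSG00000130812, chromosome 19, 10203014 to 10213472, - strand) was at 2.37, 2.50 and 2.00 CPM with vehicle and 2.19, 2.01 and 2.44 CPM with TGFβ. The groups lay within the same range. The log2 fold change was -0.05 (SE 0.17, FDR 0.944), and its 95% interval, -0.43 to 0.33, does not reach the fitted values of ANGPTL4 and ANGPTL8. C19orf66, which overlaps it over 915 bases, was at -0.15 (FDR 0.730), and reads of this pair cannot be told apart over these bases either.

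**Figure D3:**
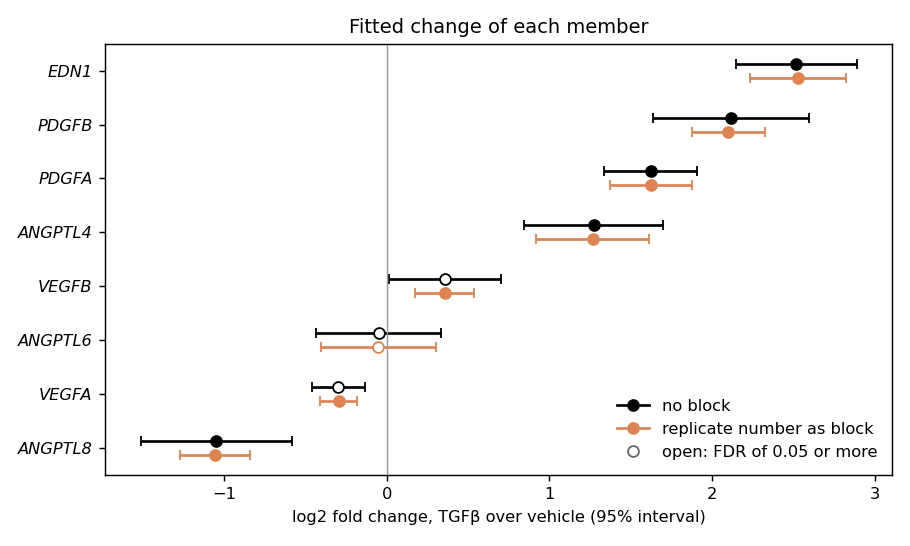
Log2 fold change, TGFβ over vehicle, of the 8 tested genes with the 95% interval, from edgeR's quasi-likelihood fit without (black) and with (orange) the replicate block, open points having an FDR of 0.05 or more. Values run from -1.05 for ANGPTL8 to 2.52 for EDN1, and only the intervals of ANGPTL6 include 0.

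Per length, the order of the genes changed with treatment. In vehicle cultures the mean RPKM was highest for ANGPTL8 (8.49), followed by VEGFB (6.45), VEGFA (4.71), EDN1 (1.38), ANGPTL6 (0.869), PDGFB (0.784), PDGFA (0.568) and ANGPTL4 (0.371). The ranges of ANGPTL8 and VEGFB overlapped, and so did those of ANGPTL6 and PDGFB, so the order inside these pairs is not beyond the spread of the cultures. With TGFβ the order was VEGFB (8.07), EDN1 (7.76), ANGPTL8 (3.98), VEGFA (3.73), PDGFB (3.33), PDGFA (1.70), ANGPTL4 (0.872) and ANGPTL6 (0.816). EDN1 then overlapped with VEGFB, PDGFB with VEGFA, VEGFA with ANGPTL8, and ANGPTL6 with ANGPTL4. The RPKM of EDN1 moved from the percentile 41.9 of all tested genes to 75.0, that of PDGFB from 33.6 to 57.9 and that of PDGFA from 29.2 to 46.1. ANGPTL8 moved from 76.7 to 61.4, and ANGPTL4 remained low, at 23.6 and 35.7. The level of VEGFA per length rests on the 14431 bases that the table gives it, the longest of the 9 genes, out of a locus of 16304. The place of VEGFA in this order depends on that length.

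**Figure D4:**
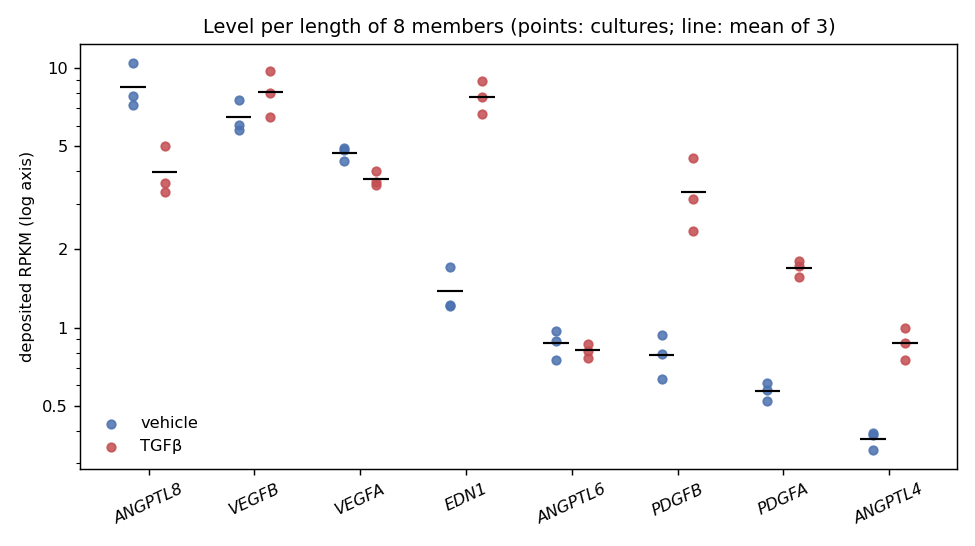
RPKM of the 8 genes with reads in every culture, on a log axis, for vehicle and TGFβ, with a line at each group mean. EDN1 moves from a mean of 1.38 to 7.76 and reaches the level of VEGFB, while ANGPTL8 moves from 8.49 to 3.98.

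For each called gene, the genes with the most similar pattern over the 6 cultures were listed by Pearson's r of log2 CPM among tested genes with a mean of at least 1 CPM. The points are 6 cultures in 2 treatment groups, so any gene with a clear difference between them has a high r, and the values are a description only. For EDN1 they were MKL1 (0.9993), LOXL4 (0.999) and PLEKHA7 (0.9989), and for PDGFB RP11-510N19.5 (0.9987), BCL10 (0.9983) and PIM1 (0.9979). For PDGFA they were DACT2 (0.9991), SPACA6P (0.9986) and MAGI3 (0.998), and for ANGPTL4 TMEM51 (0.9997), C19orf12 (0.9977) and ZNF48 (0.9977). For ANGPTL8, the only called gene that fell, they were CHCHD7 (0.9972), LURAP1L (0.9942) and PNO1 (0.9907). Not all of the listed genes passed the reported test. The FDR was 0.232 for CHCHD7, 0.0563 for LURAP1L, 0.0983 for PNO1 and 0.319 for BCL10.

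The receptors and partners were read from the same test. Of 12 other ligands and receptors of the PDGF and VEGF families 10 were tested, 1 was higher and 1 lower, with a median log2 fold change of 0.10. Among all tested genes 3.11% were higher and 1.01% lower. The co-receptors moved in opposite directions. NRP2 rose from 7.12 ± 0.893 to 27.5 ± 5.54 CPM (log2 fold change 1.95, SE 0.16, FDR 0.000116). NRP1 went from 28.6 ± 3.85 to 16.2 ± 3.58 CPM (log2 fold change -0.82, SE 0.16, FDR 0.0167), but its FDR was 0.0511 without vehicle culture 1, 0.0870 without vehicle culture 2 and 0.0636 without TGFβ culture 1. With all cultures and the replicate block the FDR of NRP1 was 1.25e-05. The receptors with which most of these ligands signal were then read after their values had been seen. PDGFRB was at 5.01, 9.22 and 6.09 CPM with vehicle and 11.0, 24.0 and 12.5 CPM with TGFβ, with a log2 fold change of 1.223 (SE 0.31, FDR 0.0582, and 7.25e-06 with the replicate block). PDGFRA had 24 reads and FLT1 69 reads over all cultures, and KDR had none.

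In the endothelin system, 2 of 7 genes could be tested and neither passed (median log2 fold change 0.03). ECE1, which makes the active peptide, was at 106 CPM with vehicle and 134 CPM with TGFβ (log2 fold change 0.33, SE 0.12, FDR 0.218, and 0.00308 with the replicate block). EDNRA and EDN3 were at 0 reads and EDNRB at 2, so EDN1 rose in cultures in which reads of its receptors were near the limit of detection. In the angiopoietin family, 9 other genes were listed and 4 tested, of which 1 was higher and none lower, with a median log2 fold change of 0.34. The shares of all tested genes were 3.11% higher and 1.01% lower. ANGPTL2 rose from 4.38 ± 0.641 to 11.8 ± 0.849 CPM (log2 fold change 1.43, SE 0.14, FDR 0.000401). Of 8 genes listed for lipoprotein lipase (the enzyme, its regulators and the related lipases LIPC and LIPG) 6 were tested and none passed (median -0.01). With the replicate block LIPG (endothelial lipase) was lower (log2 fold change -0.67, FDR 0.0250), where 3.75% of all tested genes were lower. APOC2, the activator of the enzyme and the most abundant gene of that list, was at 0.01 (FDR 0.985), and LPL itself had 0 reads.

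Hypoxia and PPARs are known inducers of VEGFA, EDN1 or ANGPTL4, so their target genes were read beside them. Of 17 hypoxia-induced genes, all tested, only PFKFB3 rose, from 3.10 to 15.04 CPM (log2 fold change 2.28, SE 0.14, FDR 3.73e-05), and none fell, with a median of 0.07, beside 3.11% higher and 1.01% lower among all tested genes. LDHA, the most abundant of them, was at 0.01 (FDR 0.966). With the replicate block, 4 were higher and 1 lower, where the shares of all tested genes were 8.08% and 3.75%. Of 8 tested PPAR targets out of 9, CPT1A, the enzyme that lets fatty acids enter mitochondria for oxidation, rose and none fell (median -0.04). The shares of all tested genes were again 3.11% higher and 1.01% lower. With the replicate block FABP1, a fatty acid carrier, was lower (log2 fold change -0.47, FDR 0.0234), where 3.75% of all tested genes were lower. CPT1A went from 45.5 to 61.0 CPM (log2 fold change 0.42, SE 0.09, FDR 0.0309). ACADVL, the most abundant of them, had an FDR of 0.969. The FDR of CPT1A was 0.0505 to 0.162 when any culture but TGFβ culture 3 was left out, and 0.000475 with the replicate block.

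Of 12 other secreted angiogenic factors 11 were tested, 5 of them rose and none fell, with a median of 0.51, beside 3.11% higher among all tested genes. Blocking by replicate number gave 7 higher and 1 lower, where the shares of all tested genes were 8.08% and 3.75%. THBS1, which encodes an inhibitor of angiogenesis that can activate latent TGFβ, rose from 504 to 747 CPM (log2 fold change 0.57, FDR 0.0039), and CYR61, a matricellular protein, from 29.6 to 58.6 CPM (0.98, FDR 0.00499). SEMA3C, a semaphorin that binds neuropilins, rose from 0.913 to 1.71 CPM (0.91, FDR 0.0302). CTGF, another matricellular protein, was at 0.57 (FDR 0.0327), and SEMA3F, named after its value had been seen, at 0.51 (FDR 0.0397). SEMA3C lost the call without vehicle culture 1, 2 or 3 or TGFβ culture 2 (FDR 0.0798 to 0.154), CTGF without vehicle culture 1 or 3 or TGFβ culture 1 or 2 (0.0506 to 0.164), and SEMA3F without any 1 culture but TGFβ culture 3 (0.0896 to 0.189). With total-count scaling the FDR was 0.0597 for CTGF and 0.0608 for SEMA3F, and with limma-voom it was 0.0561 for SEMA3F. The replicate block gave FDRs of 0.00777 for SEMA3C, 1.13e-05 for CTGF and 0.000276 for SEMA3F. Over these 7 lists together, 9 of 58 tested genes were higher and 1 lower, with a median of 0.04 (16 higher and 5 lower once cultures were blocked by replicate number). The shares of all tested genes were 3.11% and 1.01%, and 8.08% and 3.75% with the block.

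**Figure D5:**
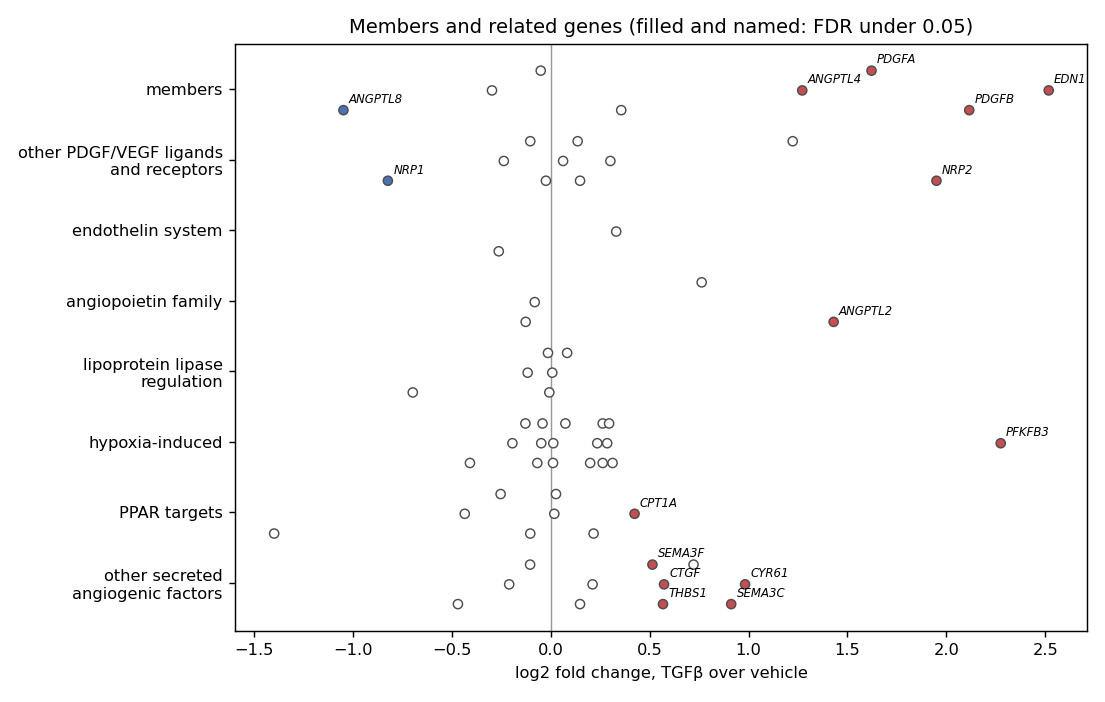
Log2 fold change, TGFβ over vehicle, of the 8 tested genes (top line) and of every tested gene in the 7 lists around them (points, spread vertically for legibility only). Genes at an FDR under 0.05 are filled, red for higher and blue for lower, and named. The list labelled other secreted angiogenic factors has 5 of them, the angiogenesis inhibitor THBS1 included.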

How the data were processed

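The authors sequenced TruSeq v2 mRNA libraries of HepG2 cells as paired reads, aligned them to hg19 (TopHat2 2.0.6 and HTSeq stand in the submitters' processing notes) and counted them with MAPRseq. The deposited counts are whole reads per gene. The RPKM values deposited by the authors beside them are scaled by the coding length and a library total, and were used only for levels between genes. For annotation release, strand setting and overlap rule: not given in the sources used here. The methods call the cultures biological replicates. The number of unused per-sample columns was 0.

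Counts were tested with edgeR 4.0.16 (limma 3.58.1, R 4.3.3): TMM normalization, filterByExpr, robust quasi-likelihood F test on group, Benjamini-Hochberg adjustment over 22747 tested genes, threshold 0.05. CPM values are TMM-normalised, and SE and 95% intervals follow from the F statistic. Steps were tested on simulated data. Promoter windows were read with Python 3.11.15. The floor for a gene at 0 was 3 reads per culture. Genes with few reads, such as ANGPTL4 with 72 to 105 reads per vehicle culture, carry a counting error that is not small beside the spread of cultures.

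Alternatives were DESeq2 1.42.0, limma-voom, 2 other scalings, no filter, a minimum of 10 counts, leaving out each culture, the ratio of mean raw counts and a replicate block. Across genes, deviations from the group mean correlated at 0.227 to 0.366 between vehicle and TGFβ cultures of one number and at 0.0101 at most otherwise, which meets the rule for pairing by number. The reported test follows the study's methods and has no block. Where the block changes a call, its FDR is given for the named genes, apart from the genes of similar pattern. Changed calls of list genes that are not named enter only the counts of their lists with the block. By the labels, numbers 1 and 2 each shared a sequencing lane and number 3 used lanes 4 and 5.

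The genes and lists were chosen with earlier results of these data known. Named genes are the 9 genes, up to 4 called genes of each list by FDR and its most abundant gene, the 3 most similar genes of each called gene, and genes overlapping the 9. Receptors, LPL, and the genes TTR, COL1A1, LIPG, FABP1 and SEMA3F were added after their values were seen. Some genes that were examined are left out of the lists and not reported here.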

Additional observations from a re-analysis of the deposited data

How the results depend on the processing

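EDN1, PDGFA, PDGFB and ANGPTL4 kept their direction and stayed under an FDR of 0.05 in all 13 alternatives, with largest FDRs of 0.000678, 0.00146, 0.00529 and 0.0314. With the replicate block, which uses the pairing of the cultures, 5 of the 9 genes were higher and 2 lower, and 16 genes of the related lists were higher and 5 lower. Over all tested genes 8.08% were higher and 3.75% lower with the block. The number of lower genes among the 9 was 1 in the reported fit, and 2, through VEGFA, with DESeq2, with its size factors, with total counts as scale, without a filter and with a minimum of 10 counts. When each culture was left out in turn, it was 0 to 2, that of the higher genes was 4 each time, and the related lists, with 9 higher and 1 lower in the reported fit, had 5 (without vehicle culture 1 or 3 or TGFβ culture 2) to 9 higher and 0 to 1 lower genes. ANGPTL6 ran from -0.14 to 0.012 when each culture was left out, with a positive sign without vehicle replicate 2 (0.012) and TGFβ replicate 2 (0.0023), and was at 0.034 in the ratio of mean raw counts. ANGPTL8 stayed lower throughout, from -1.29 to -0.86. The causes were not tested. Over all genes, the count of calls was 707 higher and 230 lower, 1837 and 853 with the block, 1009 and 406 with DESeq2, and 394 and 91 without vehicle culture 3. Depth limits what can be said of VEGFC and of the receptors with few or no reads.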
